A study of Mus musculus with 2 samples.

Results

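The Zfp900-series genes are the protein-coding mouse genes of GENCODE release M21 whose symbol is Zfp9 followed by 2 further digits. There were 63 of them among 21938 protein-coding gene records, on 12 chromosomes. The group was defined by its gene symbols but was chosen with the promoter calls of these same libraries in view, so the calls and signal values below are given as a description, with no test. The number in a symbol is a name, and the evolutionary age of the genes was not measured.

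Most genes of this kind encode proteins with an array of C2H2 zinc fingers that read DNA and an amino-terminal KRAB domain. The KRAB domain recruits TRIM28, also called KAP1, and through it the histone methyltransferase SETDB1, which lays down the repressive mark H3K9me3. Many of their known targets are transposable elements. The genes duplicate rapidly into tandem clusters, so that neighbouring copies can be nearly identical in sequence.

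Chromatin accessibility was measured by ATAC-seq, in which a transposase cuts accessible DNA, in neutrophils of peripheral blood from adult C57BL/6J mice aged 5 to 6 weeks. There were 2 libraries, biological replicates 1 and 2, each from 50000 cells, with no other group, treatment or genotype. The labels give separate biosample records under 1 donor record, no sex and no sorting step, so the spread between the libraries may be technical in part. The authors' peak lists for each replicate, thresholded by the irreproducible discovery rate (IDR, a measure of how repeatably a peak ranks), held 34409 peaks for replicate 1 and 18367 for replicate 2. Sequencing depth is unknown from peak lists. Of 10 neutrophil marker genes, 9 had a promoter region in replicate 1 and 4 in both replicates, and Ly6g had none. Of 6 markers of other blood cells, 2 had a region in replicate 1 and 1 in both replicates, the B cell gene Cd79a. Over all protein-coding genes the shares were 47.1% in replicate 1 and 39.8% in both replicates. The 4 of 10 neutrophil markers with a region in both replicates were thus near the share over all genes. The part of other cells in the calls was not tested.

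The promoters shown here are those of the 3 genes with the highest mean signal, a pair of related promoters of which one was open and one was not, and one that is shared, base for base, by a pair of genes. They come from RefSeq on GRCm38.p6 and run 5′ to 3′ on the gene's strand, with 250 bases before the RefSeq start site and 50 after it. Capitals mark matches to any of 15 short motif strings on either strand, which here are CCAAT (the NF-Y box), CCGGAAG (an ETS site), GGGCGG (the GC box of SP and KLF factors), TGTGGT (RUNX) and TTGCNNAA (C/EBP). A match is a string of letters and not a measured binding site. Zfp950 lies on the minus strand of chr19:61140791-61141090, Zfp983 on the plus strand of chr17:21650361-21650660 and Zfp958 on the plus strand of chr8:4612920-4613219.
Zfp950: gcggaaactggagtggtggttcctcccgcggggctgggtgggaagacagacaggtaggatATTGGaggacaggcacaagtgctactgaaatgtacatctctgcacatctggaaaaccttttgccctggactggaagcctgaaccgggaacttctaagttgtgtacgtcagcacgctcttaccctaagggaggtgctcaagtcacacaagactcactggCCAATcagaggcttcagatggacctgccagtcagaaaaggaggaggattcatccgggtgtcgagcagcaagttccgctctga
Zfp983: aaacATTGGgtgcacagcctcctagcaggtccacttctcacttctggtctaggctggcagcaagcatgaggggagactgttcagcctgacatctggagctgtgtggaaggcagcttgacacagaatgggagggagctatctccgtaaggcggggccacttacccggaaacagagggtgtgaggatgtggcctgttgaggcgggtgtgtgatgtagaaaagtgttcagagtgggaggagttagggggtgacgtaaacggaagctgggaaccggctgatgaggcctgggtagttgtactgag
Zfp958: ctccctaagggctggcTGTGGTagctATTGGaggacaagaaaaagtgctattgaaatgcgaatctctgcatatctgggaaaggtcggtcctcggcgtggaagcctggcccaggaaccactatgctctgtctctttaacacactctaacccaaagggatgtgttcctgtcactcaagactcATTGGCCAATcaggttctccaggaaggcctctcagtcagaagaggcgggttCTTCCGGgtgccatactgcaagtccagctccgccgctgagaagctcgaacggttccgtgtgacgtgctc

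The pair comes from the largest cluster, on chromosome 4. Zfp984 (chr4:147809739-147810038, minus strand) was open in both replicates and Zfp981 (chr4:146514670-146514969, plus strand) in neither, and their promoters were 77.1% identical in a global alignment. The median over 45 pairs of promoters in that cluster was 49.1%. The promoters of Zfp984 and Zfp981 both hold the same run of a CCAAT match, read on the other strand, joined to a GC box.
Zfp984: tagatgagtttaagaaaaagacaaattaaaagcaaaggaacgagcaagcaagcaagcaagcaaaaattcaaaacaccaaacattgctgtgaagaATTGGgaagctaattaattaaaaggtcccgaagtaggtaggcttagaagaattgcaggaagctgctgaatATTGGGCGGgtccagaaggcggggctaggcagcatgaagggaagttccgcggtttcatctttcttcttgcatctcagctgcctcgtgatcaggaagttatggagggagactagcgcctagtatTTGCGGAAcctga
Zfp981: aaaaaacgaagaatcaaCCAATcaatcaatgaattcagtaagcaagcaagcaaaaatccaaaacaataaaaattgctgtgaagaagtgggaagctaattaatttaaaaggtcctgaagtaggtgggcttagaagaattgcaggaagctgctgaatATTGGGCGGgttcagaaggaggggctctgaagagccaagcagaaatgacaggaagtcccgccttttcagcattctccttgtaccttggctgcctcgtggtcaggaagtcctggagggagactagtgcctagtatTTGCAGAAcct

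The Zfp966 promoter (chr2:175931051-175931350, minus strand) is identical to that of Zfp967 (chr2:176520754-176521053, plus strand), and neither was open. This example was picked after its values were seen.
Zfp966: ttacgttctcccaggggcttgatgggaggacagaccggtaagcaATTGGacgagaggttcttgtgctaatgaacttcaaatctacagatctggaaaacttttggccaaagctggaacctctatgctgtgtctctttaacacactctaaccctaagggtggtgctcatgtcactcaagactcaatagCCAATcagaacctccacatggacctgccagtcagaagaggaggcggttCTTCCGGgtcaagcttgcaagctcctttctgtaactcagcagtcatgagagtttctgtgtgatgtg

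A promoter was called open where a merged peak region overlapped the 1 kb on either side of any GENCODE start site of the gene. In replicate 1, 27 of the 63 genes were open, against 47.1% of all protein-coding genes. In replicate 2, 25 of the 63 were open, against 40.3% of all genes. Both replicates had a region at 24 of them (38.1%), against 39.8% of all genes, so the share was close to the background. The conservative IDR list, made by the authors from both replicates, had a region at 27, against 46.8% of all genes. The less strict lists of both replicates, built from pseudoreplicates, had one at 31 (49.2%), against 49.8% of all genes. Among the 302 other Zfp genes, with numbers of up to 3 digits, 178 (58.9%) were open in both replicates. Grouped by the leading digit of a 3-digit number, the lowest share among those other genes was 37.5% of the 32 genes named Zfp5 plus 2 digits, and the highest was 70.4% of the 27 named Zfp1 plus 2 digits.

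The share near the background joins unlike sets of genes. The clusters on chromosomes 2 and 4 were almost without open promoters. Most genes that stand alone, and most of those in the clusters on chromosomes 8 and 17, were open. Clusters were built by joining Zfp900-series genes no more than 500 kb apart, and 6 clusters of 3 or more held 41 of the 63 genes. In those clusters 10 of 41 genes (24.4%) were open in both replicates, against 14 of 22 (63.6%) outside them. In the clusters on chromosomes other than 2 and 4, 8 of 17 genes (47.1%) were open in both replicates. Those 17 include the 4 of the chromosome 7 cluster, of which 0 were.

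**Figure D1:**
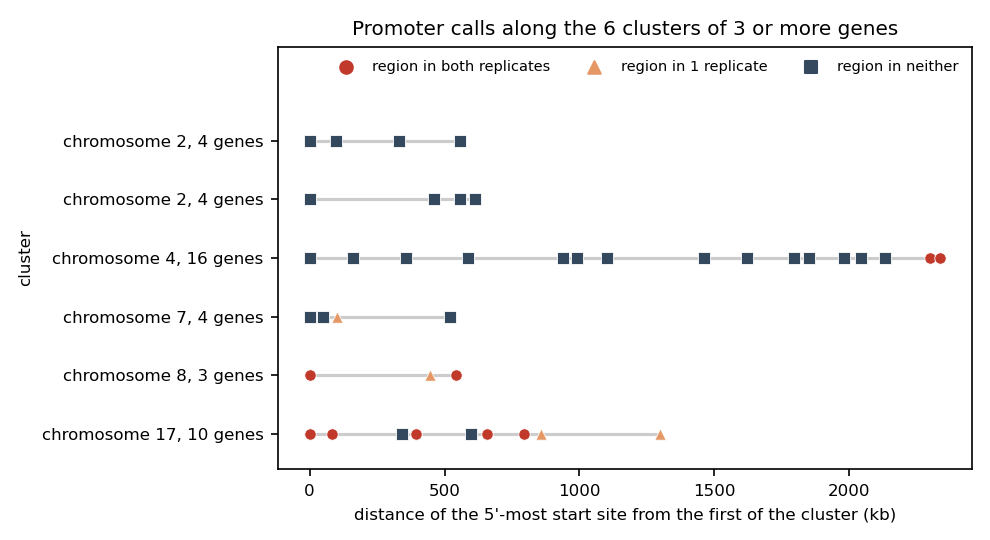
Each row is a cluster of 3 or more Zfp900-series genes, and each symbol is a gene placed by the distance of its 5'-most start site from the first in the cluster, in kb. Circles mark promoters open in both replicates, triangles in 1 and squares in neither; Zfp942 and Zfp943 on chromosome 17 lie on top of each other. The open genes of the 16-gene chromosome 4 cluster are the last 2 in the row.

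On chromosome 2, 4 genes with Zfp968 first and Zfp966 last lie at chr2:175372436-175931100, and none was open in either replicate. A further 4 at chr2:177464733-178078476, with Zfp970 first and Zfp931 last, were not open either. The same held for the pair Zfp967 and Zfp973 between them. The first of these clusters held 5 other protein-coding genes and the second 6, and none of those was open. No peak region of any kind lay in the first cluster in either replicate, and the second held 1 in replicate 1 and 0 in replicate 2.

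The chromosome 4 cluster spans 2338 kb (chr4:145510759-147848366) and holds 16 genes, with Zfp990 first and Zfp933 last. In mice, deletion of a large KRAB zinc finger cluster on this chromosome is known to release some endogenous retroviruses from repression. Of its genes, 14 were open in neither replicate. The last 2 in order, Zfp984 and Zfp933, were open in both. The signal values of Zfp984 were 11.1 in replicate 1 and 10.9 in replicate 2, and those of Zfp933 were 10.7 in replicate 1 and 10.5 in replicate 2. These are among the lowest values of the open genes in each list. The 6 other protein-coding genes in its bounds were not open. The cluster held 1.28 regions per Mb in replicate 1 and 0.856 in replicate 2, against 10.2 and 5.34 over the assembled chromosomes.

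The chromosome 7 cluster (chr7:42579783-43192109) has Zfp977 first and Zfp936 last. Of its 4 genes only Zfp975 was open, and in replicate 1 alone. The chromosome 8 cluster (chr8:69209038-69749970) has Zfp930 first and Zfp963 last, both open in both replicates, with Zfp964 open in replicate 1 alone. The chromosome 17 cluster (chr17:21567008-22867134) has Zfp948 first and Zfp945 last. Of its 10 genes, 6 were open in both replicates, Zfp945 in replicate 1 alone and Zfp946 in replicate 2 alone, and Zfp995 and Zfp947 in neither. The chromosome 8 cluster held 14.8 regions per Mb in replicate 1 and 12.9 in replicate 2, and the chromosome 17 cluster held 11.5 and 6.15, above the values over the assembled chromosomes.

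The open Zfp900-series promoters lay mostly in the upper part of the ranking of accessible regions, and more so in replicate 1 than in replicate 2. The signal value is the authors' score for a peak, which the sources used here do not define, and it ranks regions within a list. Values of both lists are printed side by side, and their mean only orders the genes; that the lists share a scale is not stated in the sources. The strongest promoter region of an open gene sat at a median percentile of 93.0 among all regions of replicate 1 and 77.2 among those of replicate 2. For open genes among the other Zfp genes the medians were 76.6 in replicate 1 and 66.5 in replicate 2, and for all open protein-coding genes they were 70.7 and 67.1. The genes named Zfp8 plus 2 digits had medians of 87.6 and 76.8, and those named Zfp1 plus 2 digits had 88.3 and 81.1, so that in replicate 2 the last of these was above the Zfp900 series. At or above the 90th percentile in replicate 1 were 17 of the 27, against 59 of 220 other Zfp genes and 2088 of 10331 genes in all. In replicate 2 this held for 8 of the 25, against 31 of 180 other Zfp genes and 1482 of 8840 genes in all. Below the median region were 2 of the 27 in replicate 1, against 2917 of 10331 genes in all. In replicate 2 there were 8 of the 25 below it, against 2771 of 8840, so that share was close to the share over all genes. Across the 24 genes open in both replicates, the order of the signal values in the lists had a Spearman's rho of 0.71. This describes genes within the same pair of libraries, with 1 region counted for both Zfp942 and Zfp943.

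**Figure D2:**
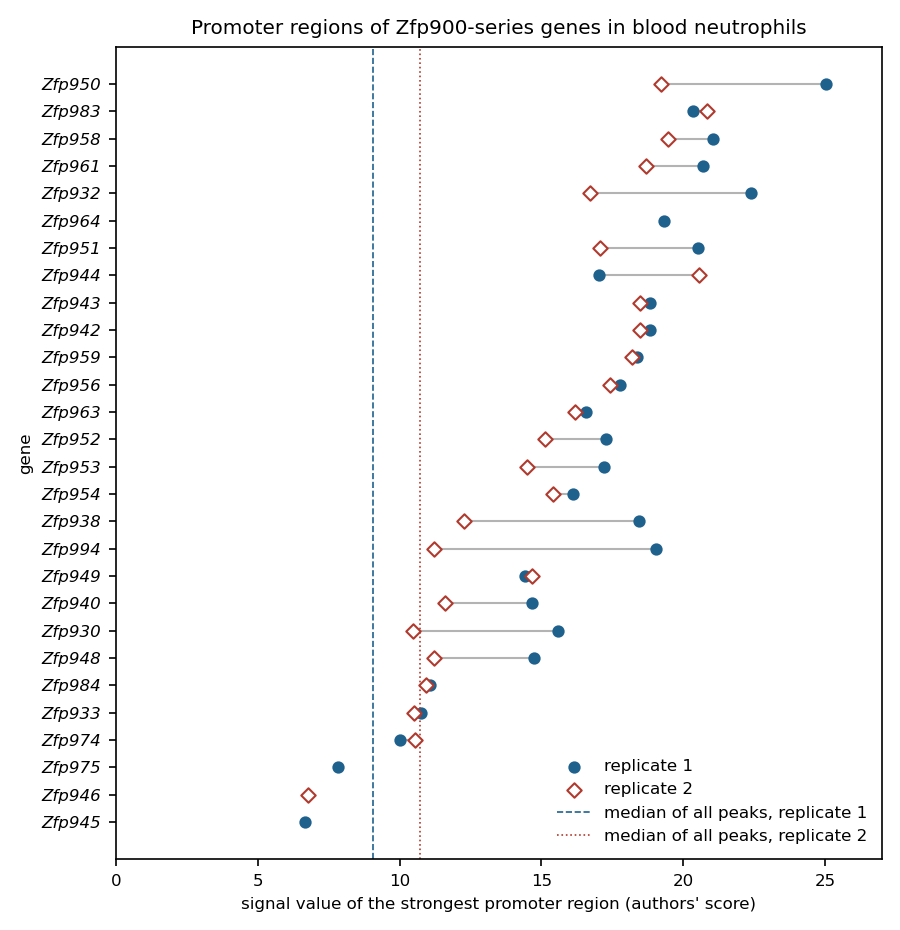
Signal value (the authors' score) of the strongest promoter region of each Zfp900-series gene open in either replicate, ordered by the mean of the values present. Filled circles are replicate 1 and open diamonds replicate 2. The vertical lines are the medians over all peaks of each list before merging, not over merged regions. Zfp950 is highest in replicate 1 at 25.0 and Zfp983 in replicate 2 at 20.8.

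Zfp950, on chromosome 19, had the highest mean. It reached 25.0 in replicate 1 and 19.2 in replicate 2, and it ranked 30 among 27709 regions of replicate 1, 845 among 14548 of replicate 2 and 80 in the conservative list. The promoter printed above lies inside its region in both replicates. Zfp983 had 20.3 in replicate 1 and 20.8 in replicate 2, the highest value of the group in replicate 2, where it ranked 371. Zfp958, on chromosome 8, had 21.0 in replicate 1 and 19.5 in replicate 2. The promoters of Zfp950 and Zfp958 were 58.5% identical, more than either was to that of Zfp983 (46.5% and 45.5%). The median identity over 1271 pairs of Zfp900-series promoters not from the same cluster was 46.5%, so the values against Zfp983 were near it.

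Zfp961 had signal values of 20.7 in replicate 1 and 18.7 in replicate 2. Zfp932, which with its paralog Gm15446 is known to bind and repress endogenous retroviruses in mouse embryonic stem cells, had 22.4 in replicate 1 and 16.7 in replicate 2. Zfp951, also on chromosome 5, had 20.5 in replicate 1 and 17.1 in replicate 2. These 3 were above the 98th percentile in replicate 1 and between the 84.2 and 92.3 percentiles in replicate 2. Zfp944 had 17.0 in replicate 1 and 20.6 in replicate 2, and its region also covered the promoter of Zfp758. Zfp942 and Zfp943 point away from each other and share 1 region, with 18.8 in replicate 1 and 18.5 in replicate 2. Zfp959 had 18.4 in replicate 1 and 18.2 in replicate 2 and completes the 10 highest.

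The other 14 genes open in both replicates had values between 10.01 and 19.0 in replicate 1 and between 10.5 and 17.4 in replicate 2. Zfp994 had 19.0 in replicate 1 and 11.2 in replicate 2, and Zfp938 had 18.4 in replicate 1 and 12.3 in replicate 2. Zfp930 had 15.6 in replicate 1 and 10.5 in replicate 2, and Zfp948 had 14.7 in replicate 1 and 11.2 in replicate 2. The median peak before merging had 9.06 in replicate 1 and 10.7 in replicate 2. Among merged regions, these 4 genes lay between the 83.9 and 96.5 percentiles in replicate 1. In replicate 2, Zfp938 was at the 54.5 percentile, Zfp948 and Zfp994 at 44.0 and Zfp930 at 35.8. Zfp956 had 17.8 in replicate 1 and 17.4 in replicate 2, Zfp963 had 16.6 and 16.2, and Zfp949 had 14.4 and 14.7, in the same order. Zfp952 had 17.3 in replicate 1 and 15.1 in replicate 2, Zfp953 had 17.2 and 14.5, Zfp954 had 16.1 and 15.4, and Zfp940 had 14.7 and 11.6. The lowest mean was that of Zfp974, with 10.01 in replicate 1 and 10.6 in replicate 2.

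The open regions were centred on the start site. In replicate 1 the summit lay within 100 bp of a start site at 25 of 27 genes (92.6%), against 65.9% of the other open genes. In replicate 2 it did so at 92.0%, against 70.4% of the other open genes. The median distance was 43 bp in replicate 1 and 42 bp in replicate 2, and the summit was upstream of the start at 24 and 22 genes. Outside 100 bp, with upstream positions as negative numbers, were Zfp948 at -592 bp in replicate 1 and -588 bp in replicate 2, Zfp945 at -217 bp in replicate 1, and Zfp946 at -162 bp in replicate 2. The regions had a median width of 604 bp in replicate 1 and 552 bp in replicate 2.

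A region in 1 replicate alone was found at 4 genes, and each of them had a peak in the other replicate's less strict list. Zfp964 reached a signal of 19.3 in replicate 1, at the 96.98 percentile, and 9.48 in the less strict list of replicate 2. Zfp975 had 7.84 in replicate 1 and 7.90 in the less strict list of replicate 2. Zfp945 had 6.68 in replicate 1 and 4.81 in the less strict list of replicate 2. Zfp946 had 6.78 in replicate 2 and the same rounded value in the less strict list of replicate 1. Apart from Zfp964, these sit at the low end of the values that passed the IDR threshold.

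The 35 genes open in neither replicate fall into a few places. On chromosome 2 they were Zfp937, Zfp968, Zfp965, Zfp969, Zfp966, Zfp967, Zfp973, Zfp970, Zfp972, Zfp971 and Zfp931. On chromosome 4 they were Zfp990, Zfp980, Zfp986, Zfp987, Zfp992, Zfp981, Zfp993, Zfp989, Zfp991, Zfp988, Zfp978, Zfp982, Zfp985 and Zfp979. The others were Zfp977, Zfp976, Zfp936 and Zfp941 on chromosome 7, Zfp935 and Zfp934 on chromosome 13, Zfp957 on chromosome 14, and Zfp960, Zfp995 and Zfp947 on chromosome 17. Of these, 5 had a peak in a less strict list. Zfp937 had 6.16 in replicate 1 and 5.65 in replicate 2. Zfp934 and Zfp935 shared a region with 4.76 in replicate 1 and 5.27 in replicate 2. Zfp995 had 8.12 and Zfp947 had 5.60, both in replicate 1 alone. None of the 25 listed for chromosomes 2 and 4 other than Zfp937 had a promoter peak in any list used.

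Promoter sequence was repeated in the genome more often for these genes than for others, which bears on how reads can be placed. For each gene the share of 50-base words within 250 bp of the 5'-most start site that occur once on the assembled chromosomes was counted on both strands. Its median was 71.5% for the 63 genes, against 100% for all protein-coding genes. Every word was unique at 20 of the 63 (31.7%), against 81.4% of all genes. The median was 100% for the 24 genes open in both replicates and 47.1% for the 35 open in neither. At Zfp968, Zfp965, Zfp969, Zfp966, Zfp967, Zfp973, Zfp993, Zfp978 and Zfp979 no word was unique, and none of these was open.

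**Figure D3:**
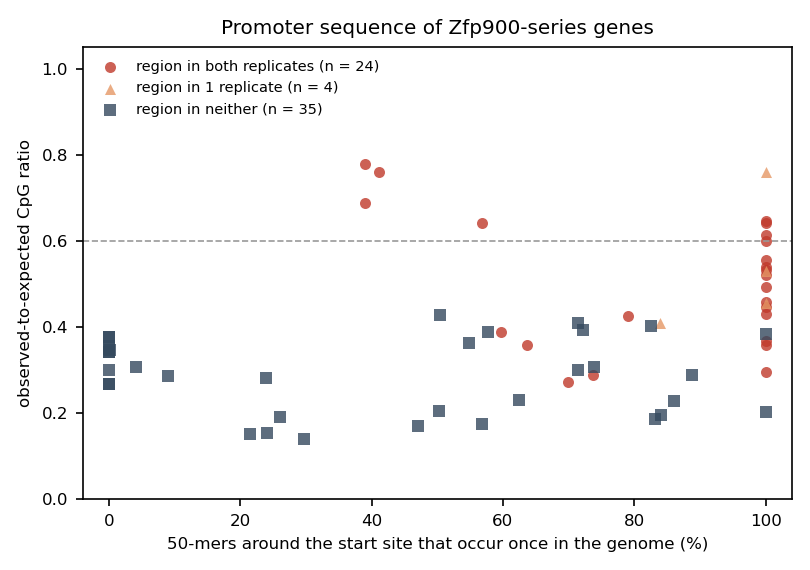
Each symbol is 1 Zfp900-series gene, by the share of 50-base words around its 5'-most start site that occur once in the genome (x axis, percent) and the observed-to-expected CpG ratio of its promoter (y axis, with 0.6 dashed). Circles are open in both replicates (24), triangles in 1 (4) and squares in neither (35); 15 of the 20 genes at 100% are circles, and no gene under 38.9% is.

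The same contrast ran over whole clusters. In the first chromosome 2 cluster 0.00065% of 50-base words were unique, against 18.03% in the 500 kb on each side. The share was 26.95% in the second chromosome 2 cluster, against 57.2% in its flanks, and 30.6% in the chromosome 4 cluster, against 92.3%. It was 56.8% in the chromosome 7 cluster, against 85.1%, and 66.7% in the chromosome 8 cluster, against 94.7%. Only in the chromosome 17 cluster was it higher inside, at 78.5%, than in the flanks, at 60.9%. How the authors treated reads that fit several places is not given in the sources used here, so a closed promoter and one whose reads were not placed cannot be told apart where words are repeated.

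Repeated sequence and an open call also occurred together. Zfp942 and Zfp944 had 38.9% unique words and Zfp943 had 41.2%, and all of these were open in both replicates. In the other direction, Zfp941 and Zfp957 had unique words throughout and were open in neither. On chromosome 4, Zfp981, Zfp988 and Zfp985 had 86.1%, 84.1% and 83.2% unique words and were open in neither, while Zfp984 had 69.9% and was open in both. For Zfp981 this was measured at its 5'-most start site, which lies upstream of the RefSeq start whose promoter is printed above. With 100-base words, Zfp981, Zfp988 and Zfp985 had 100% unique words and Zfp984 had 85.3%. The median with 100-base words was 100% for genes open in both replicates and 75.9% for the 35 open in neither. The part of word uniqueness in the calls was not tested.

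Few of these promoters were rich in CpG. The label CpG-rich was given where, in the window reaching 500 bp to each side of the 5'-most start site, the CpG ratio was 0.6 or more and GC made up 50% or more of the bases. This held for 7 of the 63 (11.1%), against 55.6% of other Zfp genes and 44.4% of all protein-coding genes. Of the CpG-rich genes 6 of 7 were open in both replicates, against 70.8% of CpG-rich other Zfp genes and 66.8% of all CpG-rich genes; the seventh was Zfp964. Of the 56 that were not CpG-rich, 18 (32.1%) were open in both, against 44.0% of other Zfp genes and 18.2% of all genes of that class.

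Split further, after the values were seen, 17 of these 56 had unique words throughout, and 13 of them (76.5%) were open in both replicates. The same class had 43 of 99 open (43.4%) among other Zfp genes and 1893 of 8822 (21.5%) among all genes. Its median CpG ratio was 0.457 for the 17 genes, 0.486 for other Zfp genes and 0.283 for all genes, so it was not matched in CpG content. The part of CpG content in these shares was not tested. Where some words were repeated, 5 of 39 (12.8%) were open, against 16 of 35 (45.7%) of other Zfp genes and 326 of 3378 (9.65%) of all genes. The repeated class was not alike in the 2 gene families, since its median of unique words was 50.4% here and 92.5% among other Zfp genes.

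**Figure D4:**
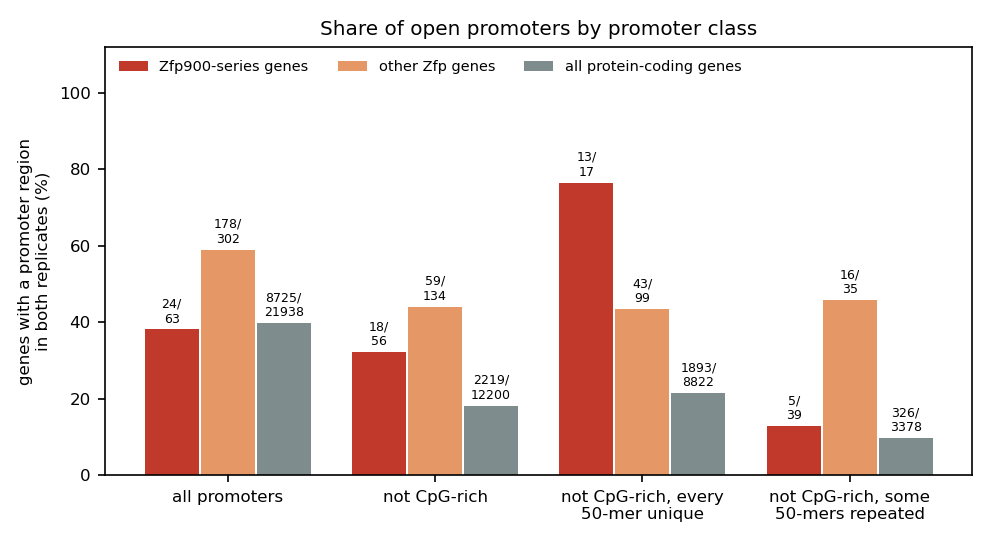
Percent of genes with a promoter region in both replicates, in 4 promoter classes (a gene can be in several), for Zfp900-series genes, other Zfp genes and all protein-coding genes, which include the other groups. Fractions above the bars give open genes over genes in the class. In the class that is not CpG-rich and has unique words throughout, the bars stand at 76.5%, 43.4% and 21.5%. Genes within a class were not matched for their CpG ratio.

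The promoters shared short motifs. RefSeq promoters matched 53 of the 63 genes by symbol, and Zfp969, Zfp990, Zfp986, Zfp992, Zfp989, Zfp991, Zfp978, Zfp930, Zfp934 and Zfp960 were not in the table. For 50 of the 53, the RefSeq start lay within 1 kb of a GENCODE start of the gene. On either strand, CCAAT occurred in 40 of 53 (75.5%), against 44.1% of other Zfp promoters and 38.8% of all 16522 promoters of the same length. It occurred 2 or more times in 39.6%, against 13.0% of all promoters. It was found in 15 of the 23 open in both replicates (65.2%) and in 25 of the 30 others (83.3%). The Zfp958 promoter holds 3 matches, and a pair of them meet as ATTGGCCAAT.

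The ETS string CCGGAAG occurred in 26.4%, against 21.5% of other Zfp promoters and 12.3% of all promoters. It was in 17.4% of those open in both replicates and 33.3% of the others. The GC box GGGCGG occurred in 34.0%, against 46.2% of other Zfp promoters and 48.0% of all promoters. The TATA box string TATAAA and the AP-1 string TGANTCA were in none of the 53, against 12.8% and 7.04% of all promoters. The myeloid strings TTGCNNAA (C/EBP) and GAGGAAGT (PU.1) were in 5.66% and 7.55%, against 10.01% and 3.10% of all promoters. All 4 promoters with the PU.1 string were among the 30 not open in both replicates. Copies of a promoter made by duplication carry the same strings, so these genes are not independent counts.

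Most of the encoded proteins carried the domains of the family. In the translated coding sequences of the annotation, 60 of 63 had at least 1 C2H2 finger pattern, with a median of 11. A KRAB-like pattern was found in 56 (88.9%), against 43.05% of other Zfp genes. Of those with the KRAB pattern 20 of 56 (35.7%) were open in both replicates, against 79 of 130 other Zfp genes with it (60.8%). Zfp966, Zfp967, Zfp968 and Zfp969 encode the same 485-residue protein, and Zfp965 and Zfp973 the same 318-residue one. Identity to the most similar protein of the group had a median of 57.8% for genes open in both replicates and 72.3% for the rest.

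The machinery that KRAB proteins work through had accessible promoters. Of 23 genes on a list of KRAB partners, 18 (78.3%) were open in both replicates, against the 39.8% of all genes given above. The list is rich in CpG-rich promoters, with 78.3% of its genes in that class. Of all CpG-rich genes, 66.8% were open in both replicates, which is nearer to the share of the list. Trim28, the corepressor, had signal values of 11.6 in replicate 1 and 10.2 in replicate 2, and Setdb1, the methyltransferase, had 11.3 in replicate 1 and 10.1 in replicate 2. Mphosph8, a subunit of the HUSH silencing complex, had 22.6 in both. Chd3, Dnmt3b and Hells had no region in the IDR list of either replicate. Hells had one in the conservative IDR list, and Dnmt3b and Hells had one in the less strict lists of both replicates.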

How the data were processed

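Peak lists from 2 ATAC-seq libraries of mouse blood neutrophils were used. Per the labels, they are on mm10 (GRCm38); the reference was GRCm38.p6 with GENCODE M21, and coordinates count from 1. The deposited lists give each peak a signal value, a score that neither labels nor file headers define, a −log10 p in the authors' own column, and a summit offset. Per the file headers, each replicate has an IDR-thresholded list, which gave the calls, and a more lenient pseudoreplicated one; the authors also deposited lists from both replicates together. The aligner, the peak caller and the treatment of multiply placed reads were not given in the sources used here, and depth is unknown.

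Overlapping peaks were merged into regions, with the highest score and its summit. Unique words were counted with numba 0.67.0, and alignments were made with biopython 1.88, numpy 2.4.6 and pandas 2.3.3. Merging and overlap, and the word count, were tested on simulated data. Alternatives were other windows, lists, thresholds, cluster gaps and word lengths. Members and lists were chosen with earlier results of these data known. Genes named are the 10 with the highest mean score, those open in 1 replicate, those open in neither, and the ends of clusters, with others named for what a sentence counts. With 1 group of 2 replicates, no test was run. The result of 1 marker gene is not reported here.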

Additional observations from a re-analysis of the deposited data

How the results depend on the processing

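Of 36 alternatives to the values in the report, 34 left counts within 1.5 times and median percentiles within 1 SD of the replicates. The median share of unique words was 55.8% with 36-base words and 94.5% with 100-base words, against 71.5% with 50-base words; longer words are repeated less often by construction. The count open in both replicates lay between 21 and 31 over all alternatives, and was 25 from replicate 2 alone and 27 from replicate 1 alone. The lower end came from keeping only peaks at or above the median score of their list (33.3%, against 30.4% of all genes), the upper from the less strict lists. With the 5'-most start site alone the share was 38.1%, against 36.5% of all genes, so in these 2 settings it lay above the background and not below it. Ranked among promoter regions alone, the median percentile of open genes was 88.6 in replicate 1 and 68.0 in replicate 2. Genes in clusters of 3 or more numbered 35 with gaps of at most 250 kb and 43 with gaps of at most 1 Mb. No paired analysis was possible because there is 1 group. Peak lists carry no read depth, and 2 libraries give little view of the spread between animals.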

Other observations

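Distal accessible regions were fewer around Zfp900-series genes than around protein-coding genes at large. A distal region has its summit more than 1 kb away from any start site and within 50 kb of the gene's 5'-most start. None was found in either replicate for 47 of the 63 genes (74.6%), against 48.5% of all protein-coding genes. The mean per gene was 0.349 in replicate 1 and 0.111 in replicate 2, against 1.17 and 0.433 for all genes. Other Zfp genes with the KRAB pattern were also low, at 0.531 in replicate 1 and 0.208 in replicate 2. Most 50-base words in the clusters on chromosomes 2 and 4 are repeated, and the part of this in the counts was not tested. The bases within 500 bp of the start site that the genome marks as repeats had a median share of 8.19% at the 24 genes open in both replicates and 22.1% at the 35 open in neither, against 9.59% over all protein-coding genes.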
